A study of Mus musculus with 9 samples.

Results

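The sialidase family was described in hindlimb skeletal muscle of SMN delta 7 mice, called SMA here, and of wild type (WT) mice. Its members Neu1, Neu2 and Neu3 are 3 of the 32594 genes in the count table and were found by symbol. The family was chosen by the level of Neu2, which is among the largest falls between SMA and WT muscle, so that contrast is described below without a test. Neu1 and Neu3 entered by family name and were tested. RNA was measured in 4 SMA and 5 WT libraries, and both groups had the FVB/N strain background. The labels name the genotype of the first group as SMN delta 7 and of the second as wild type, without listing alleles, age or litter. As background, this line lacks working mouse Smn1 and carries human SMN transgenes, one of them without the exon that the line is named for. It models spinal muscular atrophy, a disease in which shortage of the survival motor neuron protein leads to loss of motor neurons and wasting of muscle. Nothing in the labels says that each library came from its own animal, so p-values reflect how far these samples vary, which may be technical.

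Sialic acids are acidic sugars at the outer ends of the glycan chains of glycoproteins and glycolipids. Sialidases, also called neuraminidases, cut them off, while sialyltransferases put them on. Neu1 is the lysosomal form and works in a complex with cathepsin A (Ctsa) and beta-galactosidase (Glb1). Neu2 is the cytosolic form, known in rodents for its high expression in skeletal muscle and for its rise as cultured myoblasts fuse into myotubes. Neu3 sits at the plasma membrane and prefers gangliosides, the sialic acid bearing glycosphingolipids. Neu4, the other sialidase gene of the mouse, is known mainly from brain.

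The genes lie apart in the genome. In GENCODE M21, on the build GRCm38 (mm10) that the submitters' processing notes name, Neu1 (ENSMUSG00000007038) spans chr17:34931253-34935953 on the plus strand, Neu2 (ENSMUSG00000079434) chr1:87509889-87597845 on the plus strand, and Neu3 (ENSMUSG00000035239) chr7:99811439-99828417 on the minus strand. Neu2 has 7 coding transcripts from 5 start positions, whereas Neu1 and Neu3 have 1 coding transcript each. Promoter sequences are shown so that the muscle-rich member can be read beside the other members, with the E-box as the motif, since MyoD and other myogenic factors bind E-boxes. Each run holds 250 bases before and 50 bases from an annotated start, as given by RefSeq on GRCm38.p6, and capitals mark each E-box, CANNTG, which reads the same on both strands. For Neu2 the start nearest the end of the gene is shown.

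Neu2 (chr1:87594300-87594599, plus strand): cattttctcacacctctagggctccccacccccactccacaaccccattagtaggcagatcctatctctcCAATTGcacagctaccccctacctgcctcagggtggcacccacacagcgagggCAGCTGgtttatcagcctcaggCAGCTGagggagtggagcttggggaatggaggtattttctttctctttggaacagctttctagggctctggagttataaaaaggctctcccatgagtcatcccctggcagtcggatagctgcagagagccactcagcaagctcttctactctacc
Neu1 (chr17:34931003-34931302, plus strand): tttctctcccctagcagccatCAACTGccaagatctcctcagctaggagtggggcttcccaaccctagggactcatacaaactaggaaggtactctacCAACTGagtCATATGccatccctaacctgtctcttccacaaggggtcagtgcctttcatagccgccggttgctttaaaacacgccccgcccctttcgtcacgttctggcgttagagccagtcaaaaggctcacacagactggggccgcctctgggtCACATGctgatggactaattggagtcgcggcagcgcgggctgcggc
Neu3 (chr7:99828368-99828667, minus strand): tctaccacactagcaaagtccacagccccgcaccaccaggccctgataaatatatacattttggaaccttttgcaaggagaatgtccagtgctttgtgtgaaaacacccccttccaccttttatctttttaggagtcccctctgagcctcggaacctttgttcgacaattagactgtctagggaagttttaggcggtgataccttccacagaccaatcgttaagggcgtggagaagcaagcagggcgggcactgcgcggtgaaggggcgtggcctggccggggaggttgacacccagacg

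The Neu2 window held 3 E-boxes, of which 2 were CAGCTG, and 1 TATAAA box. The Neu1 window held 4 E-boxes and the Neu3 window 0, and neither held CAGCTG or TATAAA. The other windows of Neu2, at chr1:87573777-87574076 and chr1:87583772-87584071, held 0 and 1 E-boxes. Among 32851 RefSeq promoter windows of the same length, 72.3% held CANNTG, 16.3% held CAGCTG, which is one form of CANNTG, and 13.6% held TATAAA on either strand. These matches describe letters only, and gene counts do not show which Neu2 start was used.

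Gene counts summed to between 24917665 and 35087722 per library. Levels below are in CPM, the reads of a gene per 1000000 reads of its library after TMM scaling (the trimmed mean of M values). The genotype check was Smn1, the gene that encodes mouse survival motor neuron protein, which was at 1.80, 2.24, 1.40 and 2.72 CPM in SMA libraries 1 to 4, against 13.1, 13.5, 13.8, 11.1 and 13.3 CPM in WT libraries 1 to 5. Markers of skeletal muscle were abundant in both groups, summing over 10 genes to between 73200 and 86700 CPM in SMA libraries and between 131000 and 182000 CPM in WT libraries. The quasi-likelihood test of edgeR was run on 15873 genes, its p-values were adjusted by the Benjamini-Hochberg method, and a gene passed when its adjusted p was under 0.05. SMA and WT muscle differed widely: 54.9% of genes passed, 27.7% higher and 27.2% lower in SMA. A library's sex, read from its Y-linked and Xist counts, was female in SMA 1, 3 and 4 and in WT 3, and male in the others. SMA 3 and WT 5 stand apart from their groups in several values below.

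Neu2 transcripts were close to absent from SMA muscle. It had 11, 9, 14 and 5 counts in SMA libraries 1 to 4, against 271, 254, 291, 311 and 489 counts in WT libraries 1 to 5. On the CPM scale these were 0.315, 0.240, 0.391 and 0.140 in SMA and 11.9, 8.19, 11.1, 10.9 and 17.3 in WT. Every SMA library lay far below every WT library, and among WT libraries WT 5 was highest and WT 2 lowest. The means were 0.272 ± 0.107 CPM (SD, n = 4) in SMA and 11.9 ± 3.35 CPM (SD, n = 5) in WT, and the fitted log2 fold change was -5.43 ± 0.29 (SE), or 43.2-fold lower in SMA. For comparison, 1.22% of tested genes passed and were at least 4-fold lower in SMA, and the groups did not overlap for 44.2% of tested genes.

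Only 5 to 14 reads stand behind each SMA value. Exact Poisson intervals at 95%, which cover counting error only, ran from 0.157 to 0.563 CPM in SMA 1, from 0.110 to 0.455 in SMA 2, from 0.214 to 0.657 in SMA 3 and from 0.0456 to 0.328 in SMA 4. All 4 libraries were above the limit that a count of 0 would allow, 3 counts or 0.0799 to 0.0859 CPM. So reads counted for Neu2 were detected in each. The intervals overlap one another, so SMA libraries cannot be ordered by Neu2 at this depth. By log2 fold change Neu2 stood at rank 5 from the lowest of 15873 tested genes. Among the 11100 genes that averaged 5 CPM or more in SMA or WT it stood at rank 4, and among the 5515 of these without overlap at rank 3. Neu2 reached 5 CPM in WT only. These ranks restate the fall that chose the family and are no further evidence for it.

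The difference in Neu2 was of a like size in every other setting tried. Across 18 alternatives its log2 fold change ran from -5.66 without SMA 3 to -5.18 with scaling to total counts. The single male SMA library, SMA 2, had 0.240 CPM of Neu2, and the single female WT library, WT 3, had 11.1 CPM. Without SMA 3 and WT 5 together the log2 fold change was -5.48, and with sex as a covariate it was -5.40. Other genes of differentiated muscle moved with it, and their part in the result was not tested. In the skeletal muscle list 8 of 10 members fell, against 27.2% of all tested genes, and the other 2 did not pass, with Actn3, the fast-fibre alpha-actinin, at 1150 ± 117 CPM in SMA and 5220 ± 884 CPM in WT (log2 fold change -2.19 ± 0.15, adjusted p = 4.39e-07 by edgeR). In bulk tissue, fewer cells of a type and less RNA per cell cannot be told apart.

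**Figure D1:**
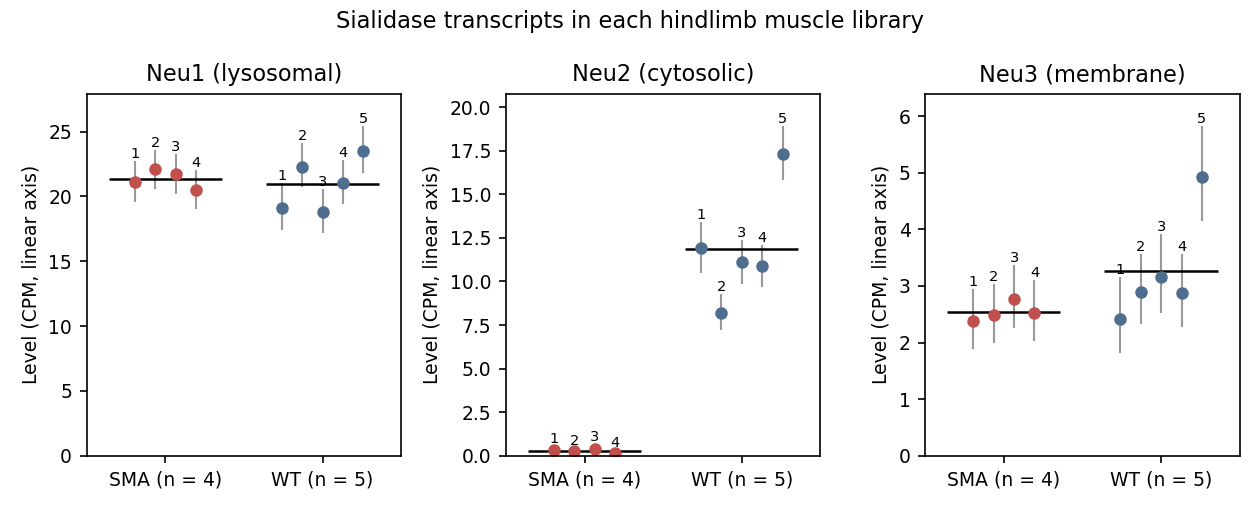
Neu1, Neu2 and Neu3 in CPM (linear axes from 0) in 4 SMA and 5 WT libraries, numbered as in the labels. Points are libraries, grey bars exact 95% Poisson intervals and black lines group means; Neu2 lies at or below 0.391 CPM in every SMA library and at or above 8.19 CPM in every WT library, while the groups overlap for Neu1 and Neu3.

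Neu1, the lysosomal sialidase, was at a like level in both groups. It had 738, 829, 776 and 729 counts in SMA libraries 1 to 4 and 435, 692, 494, 602 and 664 counts in WT libraries 1 to 5. These were 21.1, 22.1, 21.7 and 20.5 CPM in SMA and 19.1, 22.3, 18.8, 21 and 23.5 CPM in WT. All SMA values lay within the WT range. The means were 21.3 ± 0.70 CPM (SD, n = 4) in SMA and 21 ± 2.02 CPM (SD, n = 5) in WT. The log2 fold change of Neu1 was 0.024 ± 0.082 (SE) and did not pass (edgeR, adjusted p = 0.821, unadjusted p = 0.772). Its 95% interval, from -0.155 to 0.203, covers folds between 0.898 and 1.15. Scaling to total counts raised it to 0.26 (adjusted p = 0.0447 by edgeR), in a setting that also moved the median log2 fold change of all tested genes to 0.24, against 0.00596 with TMM.

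Neu3, the plasma membrane form, was slightly lower in SMA muscle on average, by less than the test could resolve. It had 83, 93, 99 and 90 counts in SMA libraries 1 to 4, against 55, 90, 83, 82 and 139 counts in WT libraries 1 to 5. These were 2.38, 2.48, 2.77 and 2.53 CPM in SMA and 2.42, 2.90, 3.16, 2.87 and 4.93 CPM in WT. The SMA values lay close together, WT 1 lay among them, and WT 5 was above all other libraries. The Poisson interval of WT 5, from 4.14 to 5.82 CPM, did not reach that of any other library, the highest of which ended at 3.92 CPM. Means were 2.54 ± 0.166 CPM (SD, n = 4) in SMA and 3.26 ± 0.972 CPM (SD, n = 5) in WT. The log2 fold change of Neu3 was -0.36 ± 0.20 (SE) and did not pass (edgeR, adjusted p = 0.142, unadjusted p = 0.0931). Its 95% interval, from -0.794 to 0.0704, holds folds from 0.577 to 1.05, so these libraries do not tell a loss of that size from no change. Without WT 5 it was -0.16 (adjusted p = 0.362 by edgeR).

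Neither of the tested members passed, where 54.9% of all genes did. DESeq2 gave them adjusted p-values of 0.902 for Neu1 and 0.164 for Neu3, and limma-voom 0.81 and 0.159. Neu4 was too low to be tested. It had 1, 0, 8 and 0 counts in SMA libraries 1 to 4 and 0 in all 5 WT libraries, where 3 counts would be 0.0968 to 0.132 CPM. Only the 8 counts of SMA 3 exceed that limit, and SMA 3 is also the library with reads of neuronal genes. Snap25, a synaptic vesicle fusion protein of neurons, had 275 counts in SMA 3 and at most 4 in any other library. A list of 10 neuron and central glia markers, chosen after its values were seen, summed to between 149 and 212 CPM in SMA and between 143 and 172 CPM in WT, mostly from Aqp4, a water channel that muscle fibres also express. Like Snap25, Slc1a2, Syt1 and Gfap of that list stood out in SMA 3. They had 581, 260 and 218 counts there and at most 36, 5 and 15 in any other library. Aqp4, Mog and Opalin did not stand out in SMA 3. The part of this list in these values was not tested.

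The order of the sialidases differed between the groups. To set the genes beside each other, levels were divided by the union exon length of each gene, in CPM per kilobase. That length can differ from the length of the transcripts present, which gene counts do not show. In SMA muscle the order was Neu1 at 5.72 ± 0.188, Neu3 at 0.759 ± 0.0497 and Neu2 at 0.105 ± 0.0414 CPM per kilobase (SD, n = 4), with no overlap between neighbours. In WT muscle it was Neu1 at 5.62 ± 0.542, Neu2 at 4.59 ± 1.29 and Neu3 at 0.974 ± 0.291 (SD, n = 5). Neu1 and Neu2 overlapped in WT, and in WT 5 Neu2, at 6.69, was above Neu1, at 6.30. Neu2 stood below Neu3 in every SMA library and above Neu3 in every WT library. Among 14228 tested genes with a known length, Neu2 was above 3.1% in SMA and 59.9% in WT, Neu1 above 64.3% and 64.9%, and Neu3 above 22.9% and 26.6%.

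Shares within a library need no scaling between libraries. Of the reads of Neu1, Neu2 and Neu3 together, Neu2 took 1.32%, 0.967%, 1.57% and 0.607% in SMA libraries 1 to 4, against 35.6%, 24.5%, 33.5%, 31.3% and 37.8% in WT libraries 1 to 5. The highest SMA share had an exact 95% binomial interval from 0.864% to 2.63%, and the lowest WT share one from 21.9% to 27.3%. The mean share of Neu2 was 1.12% ± 0.422 (SD, n = 4) in SMA and 32.6% ± 5.11 (SD, n = 5) in WT. Neu1 took 88.4% ± 0.762 in SMA and 58.6% ± 5.65 in WT, and Neu3 took 10.5% ± 0.611 in SMA and 8.90% ± 1.34 in WT. Per kilobase, Neu2's share was 1.58% ± 0.595 in SMA and 40.6% ± 5.65 in WT.

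**Figure D2:**
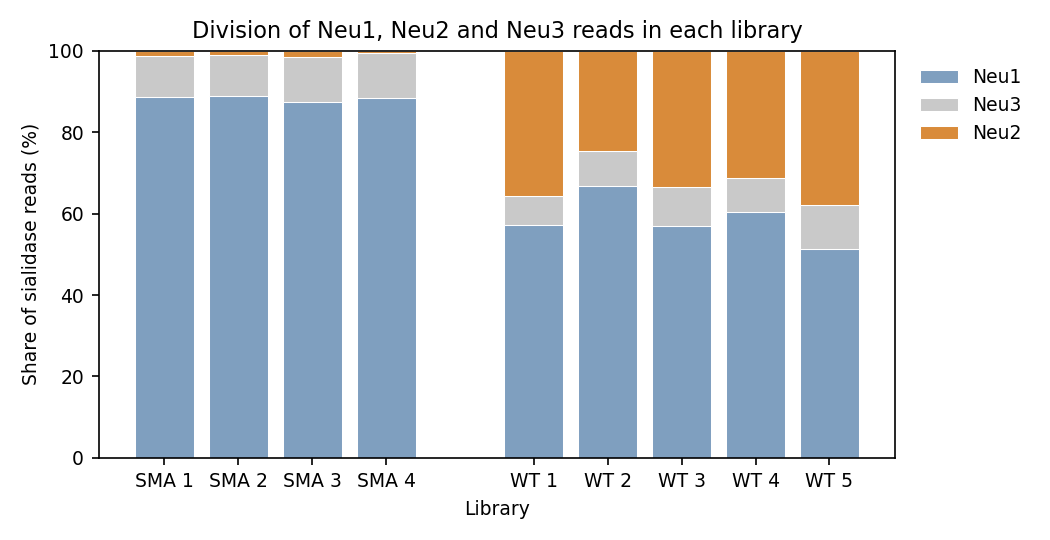
Division of Neu1, Neu2 and Neu3 reads in each of 4 SMA and 5 WT libraries, as a percentage of their sum (linear axis from 0 to 100). The Neu2 segment is at most 1.57% in SMA libraries and at least 24.5% in WT libraries, and Neu1 fills most of the rest.

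Summed over the family, transcripts were fewer in SMA muscle. The sum of Neu1, Neu2 and Neu3 ran from 23.1 to 24.9 CPM in SMA libraries, against 33.1 to 45.8 CPM in WT libraries, without overlap. Without Neu2 the sums were 23.9 ± 0.756 CPM (SD, n = 4) in SMA and 24.2 ± 2.79 CPM (SD, n = 5) in WT. The gap between the sums was therefore in Neu2, the value that chose the family. For each Neu3 read there were 0.107 ± 0.0391 Neu2 reads in SMA and 3.71 ± 0.767 in WT.

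The lysosomal and membrane forms were compared with each other by a ratio that does not use Neu2. The log2 ratio of Neu1 to Neu3 reads was 3.15, 3.16, 2.97 and 3.02 in SMA libraries 1 to 4 and 2.98, 2.94, 2.57, 2.88 and 2.26 in WT libraries 1 to 5. SMA values were the higher ones apart from WT 1, which lay just above SMA 3. The mean was 3.07 ± 0.0944 (SD, n = 4) in SMA and 2.73 ± 0.308 (SD, n = 5) in WT, a difference of 0.348 (two-sided exact permutation test over all divisions of the 9 libraries, p = 0.0317, where 0.0159 is the smallest the design allows). The call was lost when any one of 7 of the 9 libraries was left out, with exact permutation p-values between 0.0286 and 0.0714 over the 9. Without WT 5, the library high in Neu3, the difference was 0.23.

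**Figure D3:**
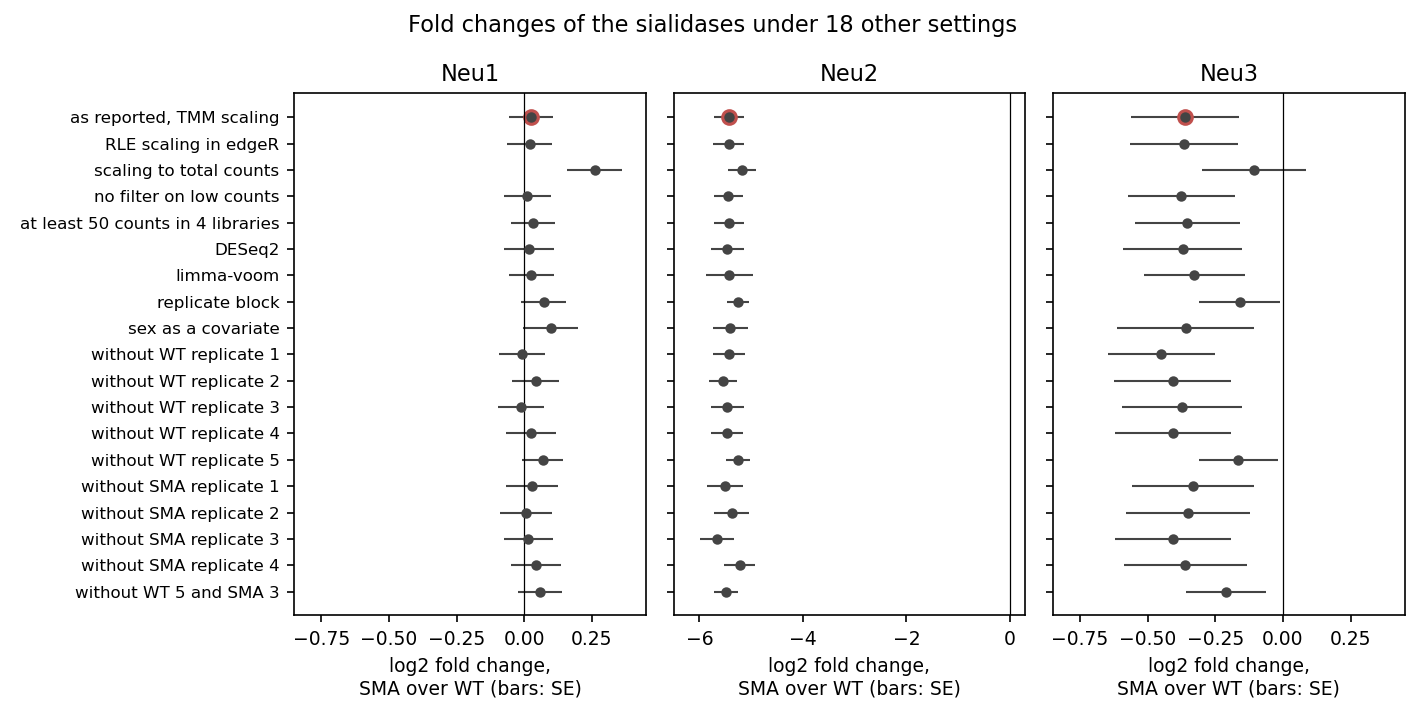
Log2 fold change of Neu1, Neu2 and Neu3, SMA over WT, as reported (red) and in 18 other settings, with SE bars. Neu2 stays between -5.66 and -5.18; Neu1 stays near 0 except with scaling to total counts (0.26), and Neu3 moves toward 0 without WT 5 (-0.16). The x axes differ between panels.

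Neighbouring genes were examined because the sources used here do not say whether reads were counted by strand. The gene model of Ngef, a guanine nucleotide exchange factor known from neurons, overlaps that of Neu2 by 63982 bases on the opposite strand. Ngef had 15, 17, 119 and 15 counts in SMA libraries 1 to 4 and 21, 22, 17, 19 and 11 counts in WT libraries 1 to 5. It was low in all libraries but SMA 3, and the groups overlapped. The log2 fold change of Ngef was 0.80 ± 0.61 (SE, adjusted p = 0.287 by edgeR), and -0.60 without SMA 3, where it also did not pass. Without WT 5 as well it was -0.75 (adjusted p = 0.0293 by edgeR). In WT libraries Ngef had at most 22 counts, where Neu2 had at least 254. In every SMA library Ngef had more counts than Neu2, which had 11, 9, 14 and 5 in SMA libraries 1 to 4. Whether any reads counted for Neu2 came from Ngef was not tested. On the far side, Inpp5d, a lipid phosphatase of blood cells that lies 22466 bases away, had a log2 fold change of 0.14 ± 0.12 (SE). Beside Neu3, Spcs2, a subunit of the signal peptidase, had one of 0.032 ± 0.066 (SE).

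Genes whose levels followed each sialidase most closely were taken from those with a mean of at least 5 CPM, by Pearson's r of log2 CPM over all 9 libraries, as a description with no test. For Neu2 they were Serinc2 (0.999), Msra (0.997), Prkag3 (0.996), Xrcc5 (0.995) and Rnf157 (0.994), out of 10695 genes compared. Prkag3, a muscle subunit of AMP-activated kinase, was at 49.6 CPM in SMA and 243 CPM in WT, and Serinc2 at 32.3 CPM in SMA and 73.5 CPM in WT. Every one of the 5 was lower in SMA, with log2 fold changes from -2.29 to -1.19, and r over both groups includes the gap between them. Taking each library's deviation from its group mean instead gave Dym (0.967) and Golga7b (0.965) as the closest.

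Neu1 was followed by Bag4 (0.962), Cyb561 (0.894), Agpat2 (0.888), Prkx (0.879) and Arl13b (0.87), and over deviations by 4930523C07Rik (0.988), Bag4 (0.971) and Rspry1 (0.966). Neu3 was followed by Akap10 (0.956), St7l (0.941), BC023105 (0.941), Insig2 (0.934) and Chp1 (0.932), and over deviations by Gyk (0.988), GU332589 (0.976) and Irgm1 (0.964). Within the family, r was -0.107 between Neu1 and Neu2, 0.473 between Neu1 and Neu3 and 0.576 between Neu2 and Neu3. Over deviations from group means these were 0.295, 0.651 and 0.523, so the sign for Neu1 and Neu2 depends on the gap between groups. With 9 libraries that differ in depth and span both groups, these values describe the libraries and carry no test.

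Genes of related pathways were counted next, in 5 lists of 71 genes, of which 61 were tested. The lists cover sialic acid synthesis, activation and turnover, sialyltransferases, glycosphingolipid synthesis, lysosomal partners of Neu1 and glycosidases, and sialic acid binding lectins. Of the 61 tested genes 13 rose, 18 fell and 30 did not pass, so 50.8% passed, near the 54.9% of all tested genes. Their median log2 fold change was -0.046, against 0.006 over all tested genes. The groups did not overlap for 20 of the 61, against 44.2% of all genes. With scaling to total counts 21 rose and 5 fell, where 40.2% of all genes rose and 13.6% fell, so the split of directions depends on the scaling.

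**Figure D4:**
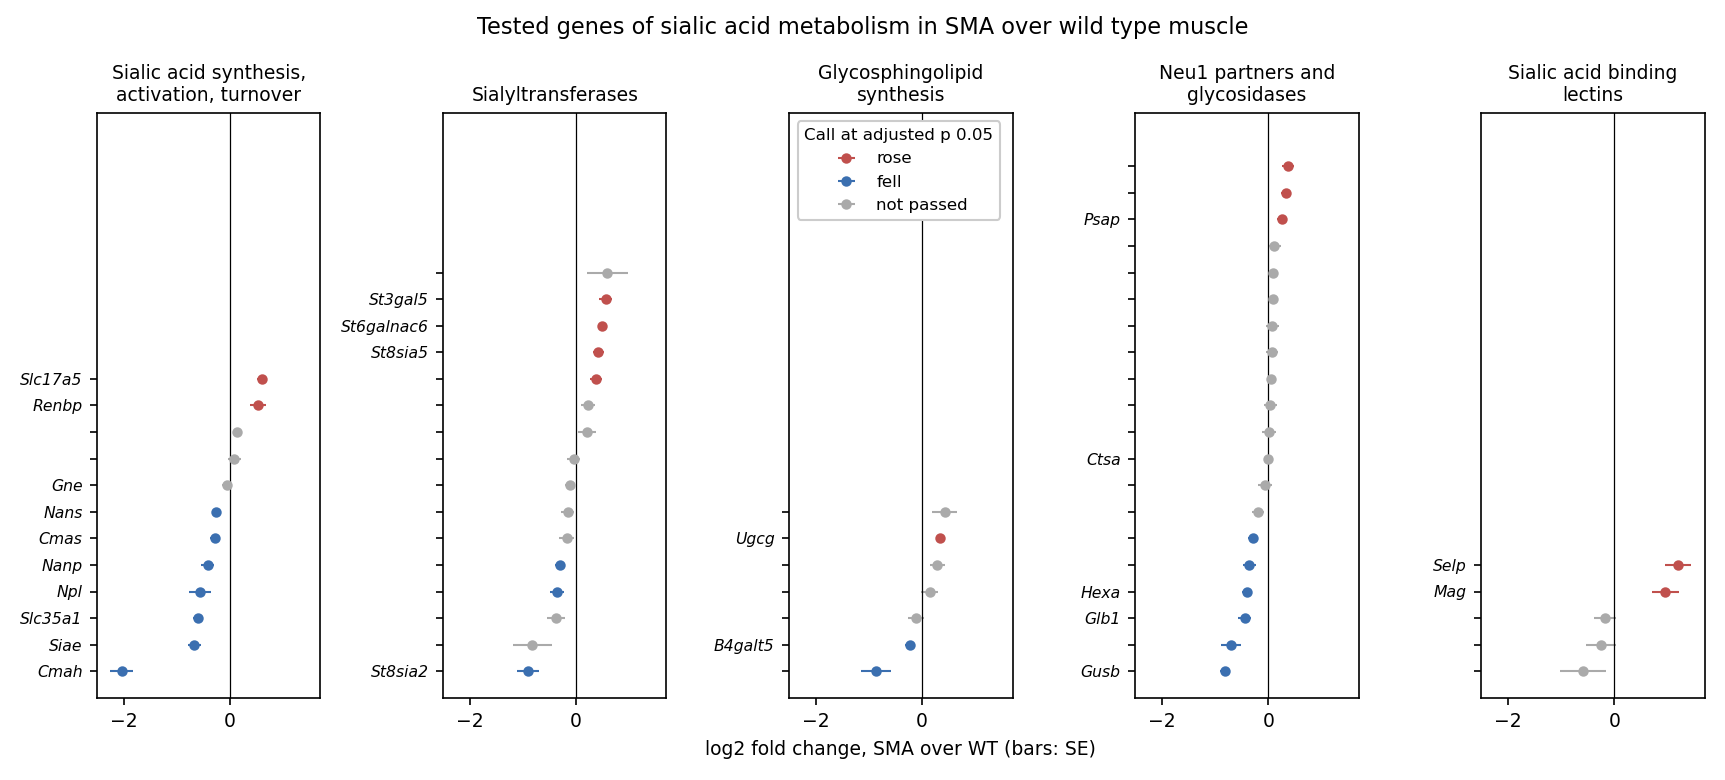
Log2 fold change, SMA over WT, with SE bars, for 60 of the 61 tested genes of 5 lists, with the genes described in the text labelled. Red points rose, blue points fell and grey points did not pass at adjusted p 0.05; Cmah is the lowest point at -2.04 and Selp the highest at 1.2.

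In the list for sialic acid synthesis, activation and turnover, 2 of 12 genes rose and 7 fell, against 27.7% and 27.2% of all tested genes. With scaling to total counts 3 rose and 3 fell, and with sex as a covariate 1 rose and 4 fell. Cmah, the hydroxylase that turns CMP-N-acetylneuraminic acid into the N-glycolyl form, showed the largest fall of the 61 genes. It was at 1.03, 1.30, 1.09 and 1.21 CPM in SMA libraries 1 to 4, against 3.52, 6.23, 3.89, 6.40 and 3.83 CPM in WT libraries 1 to 5. The groups were well apart, and the log2 fold change of Cmah was -2.04 ± 0.22 (SE, adjusted p = 1.5e-05 by edgeR), or 4.12-fold lower. It is 1 of the 1.22% of genes that were at least 4-fold lower, and it passed in all 18 alternatives.

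Slc35a1, which carries CMP-sialic acid into the Golgi, was the most abundant gene of that list per kilobase over all libraries, though in SMA Casd1, a sialic acid acetyltransferase, stood above it. Slc35a1 fell to 16.3 CPM in SMA, against 24.9 CPM in WT (log2 fold change -0.61 ± 0.078, adjusted p = 4.66e-05 by edgeR). Siae, a sialic acid esterase, fell by 0.67 ± 0.12 on the log2 scale. The synthesis enzymes fell less, with log2 fold changes of -0.42 ± 0.12 for the phosphatase Nanp, -0.29 ± 0.077 for Cmas, which activates sialic acid to CMP-sialic acid, and -0.26 ± 0.08 for the synthase Nans. Each of these 3 lost its call in 2 of 18 alternatives, scaling to total counts among them. Npl, the lyase that breaks sialic acid down, was at -0.57 ± 0.21 and kept its call in 5 of 17.

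Gne, which makes the precursor of sialic acid and whose human variants cause a myopathy, did not pass. It was at 12.6 ± 0.678 CPM (SD, n = 4) in SMA and 13.1 ± 1.47 CPM (SD, n = 5) in WT (log2 fold change -0.056 ± 0.098, adjusted p = 0.652 by edgeR). The 2 genes that rose were Slc17a5, the exporter of free sialic acid from lysosomes, and Renbp, an epimerase of amino sugars whose call was lost with sex as a covariate. Slc17a5 was at 11.1, 11.3, 9.90 and 10.8 CPM in SMA and 6.77, 7.45, 6.59, 7.76 and 6.80 CPM in WT, without overlap. Its log2 fold change was 0.60 ± 0.089 (adjusted p = 0.000148 by edgeR).

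Of the sialyltransferases 16 of 20 were tested, and 4 rose, 3 fell and 9 did not pass. That is 43.8% passed, against 54.9% of all tested genes. St3gal5, which makes the ganglioside GM3 and is the most abundant of them per kilobase, was at 92.8, 93.6, 95 and 66.6 CPM in SMA libraries 1 to 4, against 68.7, 62.0, 63.6, 52.6 and 49.1 CPM in WT libraries 1 to 5. All SMA libraries but SMA 4 were above WT, and the log2 fold change was 0.56 ± 0.12 (adjusted p = 0.00259 by edgeR). St6galnac6 rose by 0.49 ± 0.083 and St8sia5, which extends the sialic acid chains of gangliosides, by 0.42 ± 0.10 on the log2 scale. St8sia2, which builds polysialic acid on the neural cell adhesion molecule, fell to 3.86 CPM in SMA, against 7.26 CPM in WT (log2 fold change -0.91 ± 0.21, adjusted p = 0.00307 by edgeR). St8sia3 was not tested, with 58 counts in SMA 3 and 0 in all other libraries.

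Among 7 genes of glycosphingolipid synthesis, which make the lipids that Neu3 acts on, 1 rose and 2 fell. The share that passed was 42.9%, against 54.9% of all tested genes. Ugcg, which attaches the first glucose to ceramide, rose to 30.8 ± 0.514 CPM (SD, n = 4) in SMA, against 24.4 ± 1.47 CPM (SD, n = 5) in WT (log2 fold change 0.34 ± 0.068, adjusted p = 0.00121 by edgeR). B4galt5, a lactosylceramide synthase that was the most abundant of the list per kilobase over all libraries but below Ugcg in SMA, had a log2 fold change of -0.23 ± 0.089 that kept its call in 6 of 18 alternatives.

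The partners of Neu1 in the lysosome did not move together. Ctsa, the protective protein of Neu1, was at 85.5 ± 3.91 CPM (SD, n = 4) in SMA and 85.8 ± 2.51 CPM (SD, n = 5) in WT (log2 fold change -0.0045 ± 0.065, adjusted p = 0.958 by edgeR). Glb1 was at 6.87, 7.35, 8.0 and 7.02 CPM in SMA and 10.9, 12.2, 8.99, 9.37 and 8.08 CPM in WT, without overlap but with WT 5 close to SMA 3. Its log2 fold change was -0.44 ± 0.12 (adjusted p = 0.0101 by edgeR), a call lost with scaling to total counts (adjusted p = 0.300) and with sex as a covariate (adjusted p = 0.0672). Of the 21 lysosomal genes 4 rose, 6 fell and 11 did not pass, so 47.6% passed, against 54.9% of all tested genes. Gusb, the beta-glucuronidase, fell most in this list by adjusted p, with -0.81 ± 0.089 (adjusted p = 1.45e-05 by edgeR), and Hexa, a subunit of beta-hexosaminidase, fell by 0.40 ± 0.086 on the log2 scale, a call lost with scaling to total counts. Psap, the precursor of the saposins and the most abundant gene of the list per kilobase, had a log2 fold change of 0.25 ± 0.087 that kept its call in 10 of 18 alternatives.

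Of 11 sialic acid binding lectins 5 were tested, of which 2 rose and the other 3 did not pass. Over all tested genes, 54.9% passed and 27.7% rose. Selp, the P-selectin of platelets and endothelium, was at 1.89, 1.86, 1.73 and 1.60 CPM in SMA libraries 1 to 4, against 0.572, 0.71, 0.572, 0.734 and 1.24 CPM in WT libraries 1 to 5. The groups did not overlap, and the log2 fold change of Selp was 1.2 ± 0.24 (adjusted p = 0.0013 by edgeR). Mag, the myelin-associated glycoprotein and the most abundant of the list per kilobase, was at 11.9 CPM in SMA and 6.15 CPM in WT (log2 fold change 0.96 ± 0.25, adjusted p = 0.00675 by edgeR). It was highest in SMA 3, at 17.7 CPM, and without that library its log2 fold change was 0.71.

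Markers of other cells moved between the groups as well, and their part in the sialidase values was not tested. For comparison, 27.7% of all tested genes rose and 27.2% fell. Schwann cell markers, which bear on Mag, rose in 6 of 7 genes, and summed to between 991 and 2230 CPM in SMA and between 388 and 888 CPM in WT. Macrophage markers fell in 5 of 10 genes and rose in 1, with sums from 80.9 to 107 CPM in SMA and from 124 to 159 CPM in WT. Fibroblast markers fell in 5 of 7 genes and rose in 1, with sums from 1930 to 2890 CPM in SMA and from 3240 to 5780 CPM in WT. Erythroid markers fell in 4 of 4 tested genes, from 603 to 959 CPM in SMA and from 1220 to 2040 CPM in WT. Endothelial and adipocyte sums overlapped between the groups. Of 8 endothelial markers 2 fell and 6 did not pass, and of 7 adipocyte markers 1 rose, 3 fell and 3 did not pass. The adipocyte marker that rose, Fabp4, made up most of the adipocyte sum, at 571 CPM in SMA and 387 CPM in WT. All other adipocyte markers had negative log2 fold changes, from -6.01 to -0.84. Members with the lowest adjusted p of their list were Mrc1 (log2 fold change -1.72) of macrophages, Thy1 (-2.30) of fibroblasts, Hbb-bs (-1.17) of erythroid cells, Tek (-0.40) of endothelium and Ucp1 (-5.59) of adipocytes. Ucp1 was at -4.76 without WT 5, the library where it was highest, and at -6.28 without SMA 3, and the call of Tek was lost with scaling to total counts.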

How the data were processed

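The authors' deposited table holds raw whole-number read counts of each gene in 9 libraries of hindlimb muscle. Per the labels' protocols, 200 ng of total RNA entered a stranded mRNA preparation that was read in pairs of 75 bases. Per the submitters' processing notes, HTSeq 0.9.1, DESeq2 1.16.1 and the build mm10 were used, with no role stated. A second deposited table of normalized values was not used here.

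Counts were tested in R 4.3.3 with edgeR 4.0.16 (filterByExpr, TMM, quasi-likelihood, group as the single term) over 15873 genes, with Benjamini-Hochberg adjustment at 0.05. The SE is the log2 fold change divided by the square root of the F statistic. CPM were taken against the TMM-scaled library size, and 2 was the prior count on the log2 scale. CPM per kilobase used union exon lengths of GENCODE M21, matched by symbol for 70.5% of the genes in the table. Shares and ratios used counts. Depth was 24917665 to 35087722 counts. DESeq2 1.42.0, limma 3.58.1 (voom), other scalings and filters, sex, a replicate block and leaving out libraries were alternatives. The procedure was checked on simulated counts. No libraries of a group agreed within sampling noise (chi-square per degree of freedom 12.0 to 87.5).

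The members, the lists and the tests were chosen with earlier results of these data known. By rule, genes named were the sialidases, Smn1, Ctsa, Glb1, Gne, Cmas, Slc17a5, St3gal5, the most abundant member of each pathway list (per kilobase), members that passed at a log2 fold change of at least 1 either way, the lowest adjusted p of each cell type list, and the genes most like each sialidase. Ngef, Inpp5d, Spcs2, Snap25, Aqp4, Slc1a2, Syt1, Gfap, Mog, Opalin, Fabp4, Casd1, Nans, Nanp, Npl, Siae, Renbp, St6galnac6, St8sia2, St8sia3, St8sia5, Ugcg, Gusb and Hexa were chosen after their values were seen. A few genes that the rule selects are left out.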

Additional observations from a re-analysis of the deposited data

Results flagged for a closer look

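Dixon's test at 95% was run on 78 sets of values, each of 1 gene or measure in 1 group. In 8 of the sets a library stood far from the others. Chance gives about 1 in 20 for sets not picked by their values. Some genes here, St8sia3, Ngef and Nans among them, were chosen after their values were seen, so the 8 cannot be read against that rate. Values of Neu1, Neu2 and Neu3 were not among the 8. Neu4 in SMA 3, at 0.224 CPM, stood above the next SMA library, at 0.0286 CPM. In the same library St8sia3 was at 1.62 CPM and at 0 in the other SMA libraries, and Ngef was at 3.33 CPM, with the others between 0.421 and 0.453 CPM. St3gal5 in SMA 4, at 66.6 CPM, lay below the others, at 92.8 to 95 CPM. In WT 5, Ucp1 was at 119 CPM, with the next library at 40.8 CPM, and Selp was at 1.24 CPM, with the next at 0.734 CPM. Nans in WT 1 was at 30.9 CPM, with the next at 26.8 CPM. Smn1 in WT 4 was at 11.1 CPM, with the others between 13.1 and 13.8 CPM.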

How the results depend on the processing

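Neu2 kept its direction in all 18 alternatives and Neu3 kept its direction without passing in all 18. With scaling to total counts, Neu1 passed at 0.26, the calls that fell over all genes were 2164, the pathway genes were 21 that rose and 5 that fell, and the log2 fold changes of Gne (0.17), B4galt5 (0.012) and Ctsa (0.229) changed sign. That scaling also shifts the median of all genes. The log2 fold change of Neu1 ran from -0.013 to 0.068 over the libraries left out in turn, with a negative sign without WT 1 (-0.0076) and without WT 3. The log2 ratio of Neu1 to Neu3 differed by 0.2303 to 0.4122 over those, and by 0.2649 without WT 5 and SMA 3 together (exact permutation p = 0.0571); the smallest two-sided p grows as libraries are left out. The difference in Neu2's share per kilobase was -38.98 percentage points. Ctsa also changed sign with the stricter filter (0.0031), with sex (0.0079), and over the libraries left out (-0.028 to 0.0226). Ngef ran from -0.605 to 1.07 over those, and was -0.749 without WT 5 and SMA 3 together.

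Libraries with the same replicate number did not deviate together (r of 0.118, -0.00555, -0.0482 and 0.0971 for numbers 1 to 4), and none correlated best with its own number. With a replicate block, which leaves WT 5 without a partner, the log2 fold changes were 0.072 for Neu1, -5.26 for Neu2 and -0.16 for Neu3, and the pathway genes were 13 that rose and 15 that fell. Depth limits Neu2 in SMA and Neu4 in both groups.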
